A study of Rattus norvegicus with 29 samples.

Results

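This comparison set refed rats on a cafeteria diet against refed rats on a control diet. It used 10 of the 29 arrays of the series, chosen by their titles alone, with no measured value involved. The cafeteria refed group was 5 male Wistar rats, numbers 3, 6, 9, 12 and 15, that had received a hypercaloric, fat-rich cafeteria diet beside chow for 4 months from the age of 2 months. They were 6 months old, were deprived of food for 14 h and then had free access to their diet for 6 h. The control refed group was 5 rats, also numbered 3, 6, 9, 12 and 15, of the same strain, sex and age, which had only standard chow and went through the same fast and refeeding. Each array measured RNA of peripheral blood mononuclear cells, isolated from 1 rat's saphenous vein blood by Ficoll gradient, in the Cy5 colour. A Cy3-labelled pool of RNA from all groups of the study served as the common standard on every array. All levels below are log2 ratios of a rat's own RNA over that pool, and all differences are cafeteria refed minus control refed on that log2 scale. Diet was the only labelled difference between the groups. The refed rats had their own diet in the 6 h before sampling, so the long diet and the last meal cannot be told apart.

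Blood mononuclear cells are lymphocytes and monocytes that circulate between the gut, liver and adipose tissue. After a meal, insulin rises and most tissues turn from burning fatty acids to burning glucose. Fatty acids enter mitochondria for oxidation through carnitine palmitoyltransferase 1, which malonyl-CoA, the building block of new fatty acids, inhibits in the fed state. Genes of this route are induced by fatty acids through nuclear receptors of the PPAR family. Roles of genes given below are those known for the human, mouse or rat gene.

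Between 59.8 and 66.2% of the probes were well above background on the 5 cafeteria refed arrays, and between 53.3 and 66.5% on the 5 control refed arrays. Markers of mononuclear cells were measured well above background on all 10 arrays for 26 of 26 T cell genes, 15 of 15 B cell genes, 18 of 21 monocyte genes and 18 of 19 natural killer and cytotoxic genes on the array. Markers of other cells than mononuclear ones were detected too, with 13 of 14 erythroid, 20 of 23 platelet and 9 of 19 neutrophil genes well above background on all 10. In a bulk sample, fewer cells of a type and less RNA per cell cannot be told apart. The array of cafeteria refed rat 15 stood apart. Its median correlation with the other cafeteria refed arrays over genes was 0.249, and with the control refed arrays 0.0115. For comparison, the other 9 arrays had a median correlation with their own group between 0.300 and 0.516. With the other group it was between 0.290 and 0.511. The count of calls and the genes given rat by rat are therefore also given without it.

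Of 24269 genes tested, 54 (0.223%) differed between cafeteria refed and control refed rats at an adjusted p under 0.05 (limma, Benjamini-Hochberg over all genes), of which 10 (0.0412%) were higher and 44 (0.181%) lower. Carnitine palmitoyltransferase 1a (Cpt1a), the gate of mitochondrial fatty acid entry, had the smallest p of all genes. Beside it, the lipid droplet protein ADRP, transglutaminase 2 (Tgm2), paraoxonase 3 (Pon3) and arginase 1 (Arg1) rose. The 44 lower genes included regulators of kinase signalling, chromatin, transcription and RNA processing, with Shoc2 at the largest fall. The lower genes are grouped below by their known roles, after their values were seen, and no such group was tested. The median difference of the higher genes was 0.73 and that of the lower genes -0.64, against 0.0063 over all genes. In 7 of the 10 higher genes and 43 of the 44 lower ones the 5 values of one group lay wholly on one side of the 5 values of the other. Over all genes tested, 0.569% were separated upward and 1.48% downward in that way. The genes were called on these same arrays, so their separation is largely fixed by the call and is no further support. An unadjusted p under 0.05 was found for 1940 genes (7.99%). The fit drew its estimate of the spread from all 29 arrays. A fit of the 10 refed arrays alone called 0 genes, as did median centring of the arrays in place of loess, with 1902 and 1246 genes at an unadjusted p under 0.05 (limma). The number of calls also rested on single arrays. Without cafeteria refed rat 15 it was 4, as it was without control refed rat 3. The 4 were Cpt1a, CF111195, TC605137 and AA874941 in both cases. It was 10 without control refed rat 6 and 20 without cafeteria refed rat 9, against 142 without cafeteria refed rat 3.

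**Figure D1:**
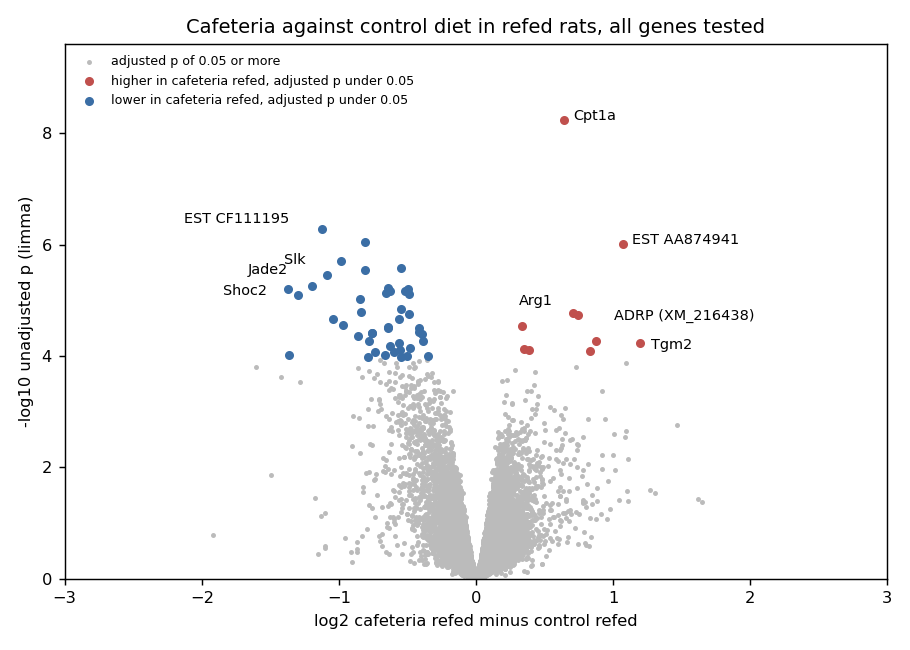
Each point is 1 of the 24269 genes tested, with the log2 difference between cafeteria refed and control refed rats on the horizontal axis and the -log10 of the unadjusted limma p on the vertical axis. The 10 genes in red were higher and the 44 in blue lower in cafeteria refed rats at an adjusted p under 0.05, and Cpt1a stands highest.

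Cpt1a had log2 ratios of 0.053, 0.0061, 0.34, 0.25 and 0.22 in cafeteria refed rats, against -0.44, -0.35, -0.55, -0.68 and -0.33 in control refed rats, in the order of the rat numbers 3, 6, 9, 12 and 15, which all later lists of values follow. Every cafeteria refed rat was above every control refed rat. The difference was 0.65 ± 0.077 (SE), a 1.56-fold higher level (adjusted p = 0.000144). It remained at 0.63 without cafeteria refed rat 15 (adjusted p = 0.00105). The probe lies on chromosome 1, 205912066 to 205912125 (rn4). Its adjusted p was under 0.05 in 19 of 22 alternative settings, the exceptions being median centring, the fit of the 10 refed arrays alone and the slide as a block.

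The files describe the probe for XM_216438 as adipose differentiation-related protein (ADRP), which coats intracellular lipid droplets. It read 0.23, 0.25, 0.57, -0.20 and 0.42 in cafeteria refed rats, against -0.93, -0.66, -0.77, -0.16 and -0.57 in control refed rats. The groups overlapped only through cafeteria refed rat 12 and control refed rat 12, and the difference was 0.87 ± 0.18 (SE) (limma, adjusted p = 0.0351). It was 0.83 without cafeteria refed rat 15 (adjusted p = 0.149). A second probe for the expressed sequence tag AA874941 read 0.23, 0.029, 0.70, -0.23 and 0.63 in cafeteria refed rats, against -1.03, -0.82, -0.90, -0.47 and -0.78 in control refed rats, without overlap. The files place it on chromosome 5 of rn4, at 105718488 to 105718547, within the 105705820 to 105719096 that they give for the ADRP probe itself, which was not checked against a gene annotation. The difference there was 1.07 ± 0.17 (SE) (adjusted p = 0.00585), and 0.98 without cafeteria refed rat 15 (adjusted p = 0.0426). Neither probe was named by symbol, and both were singled out after their values were seen.

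The rest of the fatty acid oxidation and PPAR target list lay near 0. Of 31 measured genes, 1 (Cpt1a) was called, 22 lay above 0 and 9 below, and the median difference was 0.051, against 0.0063 over all genes, of which 53.0% lay above 0 and 0.223% were called. With median centring 30 of the 31 lay above 0 and the median was 0.26, but that scaling also moved the median of all genes to 0.10. It put 64 of 65 ribosomal protein genes and 30 of 30 proteasome genes above 0 as well. In the authors' deposited table, where fewer genes of the fatty acid oxidation list were measured, 15 lay above 0 and 12 below, with a median of 0.0027. Angptl4, a secreted inhibitor of lipoprotein lipase, came closest with 0.24, 0.42, 0.36, 0.08 and 0.39 in cafeteria refed rats, against -0.16, -0.043, -0.18, -0.28 and -0.022 in control refed rats. Here, too, no value of one group reached the other group, but the difference of 0.43 ± 0.10 (SE) missed the threshold (limma, adjusted p = 0.0663), and was 0.41 without cafeteria refed rat 15 (adjusted p = 0.235). Cpt2, the inner-membrane partner of Cpt1a, differed by -0.00089 ± 0.12 (SE) and was named after its value was seen. Among 8 measured genes of fatty acid uptake, Cd36, the scavenger receptor that takes up long-chain fatty acids, had the smallest p, with a difference of 0.65 ± 0.22 (SE) (adjusted p = 0.305). Both groups had 1 rat far from the others in Cd36, rat 12 in each case, at -0.39 in the cafeteria refed group and 0.53 in the control refed group.

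**Figure D2:**
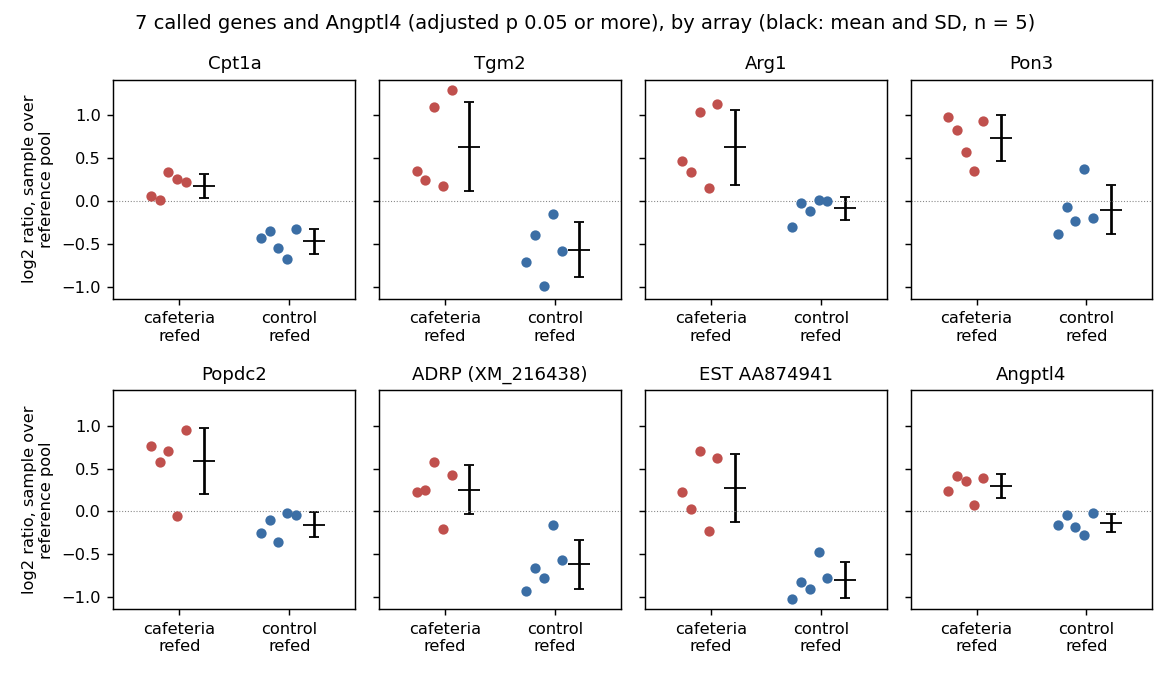
Dots are the log2 ratios of single rats for 8 genes, with cafeteria refed rats in red and control refed rats in blue, and black marks give the mean and SD of 5 arrays. The groups do not overlap for Cpt1a, Tgm2, Arg1, AA874941 and Angptl4, and Angptl4 is the one gene shown that did not pass the adjusted threshold.

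Tgm2, an enzyme that cross-links proteins and is abundant in macrophages, showed the largest rise of the called genes. It read 0.35, 0.24, 1.09, 0.18 and 1.29 in cafeteria refed rats, against -0.71, -0.40, -0.997, -0.15 and -0.58 in control refed rats. The lowest cafeteria refed rat was above the highest control refed rat, and cafeteria refed rats 9 and 15 were well above the other 3. The difference was 1.20 ± 0.25 (SE), or 2.30-fold (adjusted p = 0.0358), and 1.03 without rat 15 (adjusted p = 0.178).

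Arg1, which splits arginine into ornithine and urea, had the same 2 rats on top. It read 0.46, 0.34, 1.04, 0.14 and 1.13 in cafeteria refed rats, against -0.31, -0.025, -0.11, 0.0061 and -0.00037 in control refed rats. No values overlapped, the difference was 0.71 ± 0.14 (SE) (limma, adjusted p = 0.0193), and 4 of the 5 control refed arrays were well above background for it. Without cafeteria refed rat 15 it was 0.58 (adjusted p = 0.0945).

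Pon3, a lactonase carried on high-density lipoprotein, read 0.98, 0.82, 0.57, 0.35 and 0.93 in cafeteria refed rats, against -0.39, -0.071, -0.23, 0.36 and -0.20 in control refed rats. Cafeteria refed rat 12 and control refed rat 12 were level, and all other cafeteria refed rats were above all control refed rats. Its difference was 0.83 ± 0.18 (SE) (adjusted p = 0.0429), and 0.78 without cafeteria refed rat 15 (adjusted p = 0.178). Popdc2, a cyclic AMP-binding membrane protein of heart and muscle, read 0.76, 0.58, 0.70, -0.052 and 0.95 in cafeteria refed rats, against -0.25, -0.096, -0.36, -0.017 and -0.047 in control refed rats, with cafeteria refed rat 12 within the control refed range. The difference was 0.74 ± 0.14 (SE) (limma, adjusted p = 0.0193), and 0.65 without cafeteria refed rat 15 (adjusted p = 0.109).

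The 3 remaining higher genes had smaller differences and tight groups. Tgif1, a homeodomain repressor of TGF-beta and retinoid signalling, averaged 0.24 ± 0.033 in cafeteria refed rats and -0.11 ± 0.066 in control refed rats (SD, n = 5 arrays each, adjusted p = 0.0419 by limma over all genes). Ptgr2, which reduces 15-keto-prostaglandin, averaged 0.27 ± 0.14 in cafeteria refed rats and -0.073 ± 0.056 in control refed rats. The unnamed tag AI639155 averaged 0.36 ± 0.12 and -0.02 ± 0.063 in the same order of groups. None of these groups overlapped. Just outside the threshold, Rec114, a meiotic recombination protein, differed by 1.09 ± 0.24 (SE) with overlapping groups (limma, adjusted p = 0.0541).

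The lower genes of kinase signalling included Shoc2, Slk, Csnk1a1, Jak1 and Taok3. Shoc2, a leucine-rich scaffold that assembles Ras and Raf, read -0.53, -1.06, -0.70, -0.88 and -1.45 in cafeteria refed rats, against 0.67, 0.59, 0.45, 0.48 and 0.049 in control refed rats. All 5 cafeteria refed values were below 0 and all 5 control refed values above it. Its difference of -1.37 ± 0.24 (SE), 2.59-fold lower, was the largest fall of a named gene (limma, adjusted p = 0.0115), and it was -1.24 without cafeteria refed rat 15 (adjusted p = 0.0656). Slk, an STE20-like kinase of the cytoskeleton, read -0.11, -0.79, -0.57, -0.95 and -0.96 in cafeteria refed rats, against 0.61, 0.56, 0.23, 0.60 and 0.07 in control refed rats, again with no overlap. The difference was -1.09 ± 0.19 (SE) (adjusted p = 0.0106), and -1.02 without cafeteria refed rat 15 (adjusted p = 0.0554). Csnk1a1, the casein kinase that primes beta-catenin for degradation, read -0.12, -0.57, -0.81, -0.73 and -1.12 in cafeteria refed rats, against 0.30, 0.24, 0.23, 0.18 and 0.0096 in control refed rats. It differed by -0.86 ± 0.18 (SE) (limma, adjusted p = 0.031), and its second probe by -0.63. Its first probe gave -0.75 without cafeteria refed rat 15 (adjusted p = 0.164). Jak1, the kinase of interferon and interleukin receptors, read -0.056, -0.28, -0.32, -0.26 and -0.25 in cafeteria refed rats, against 0.58, 0.44, 0.25, 0.31 and 0.39 in control refed rats. Its groups were tight and lay apart, with a difference of -0.63 ± 0.11 (SE) (adjusted p = 0.0115) and one of -0.94 at its second probe. Its first probe gave -0.62 without cafeteria refed rat 15 (adjusted p = 0.0554). Taok3, a further STE20 kinase, fell by 0.55 (limma, adjusted p = 0.01), and its second probe differed by -0.19.

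Among the lower genes that act on chromatin or transcription were Jade2, Kat6a, Wac, Tcea1 and Rtf1. Jade2, a PHD-finger partner of histone acetyltransferases, read -0.43, -0.25, -0.62, -0.63 and -1.36 in cafeteria refed rats, against 0.57, 0.90, 0.23, 0.55 and 0.42 in control refed rats. Cafeteria refed rat 15 was the lowest of all, and the other 4 were still below every control refed rat. The difference was -1.19 ± 0.21 (SE) (limma, adjusted p = 0.0115), and -1.02 without that rat (adjusted p = 0.0628). Kat6a, a MYST-family histone acetyltransferase, read 0.048, -0.28, -0.42, -0.41 and -0.81 in cafeteria refed rats, against 0.58, 0.65, 0.50, 0.37 and 0.25 in control refed rats, a difference of -0.85 ± 0.15 (SE) (adjusted p = 0.0126), and -0.74 without cafeteria refed rat 15 (adjusted p = 0.0791). Its 2 other probes, both much dimmer, differed by -0.15 and -0.024. Wac, an adaptor of histone H2B ubiquitination, read -0.38, -0.95, -0.84, -0.73 and -1.11 in cafeteria refed rats, against 0.51, 0.44, -0.32, 0.18 and 0.015 in control refed rats. It differed by -0.97 ± 0.19 (SE) at its brightest probe (adjusted p = 0.0258), and by -0.89 without cafeteria refed rat 15 (adjusted p = 0.123). Its other probe differed by 0.049 ± 0.097 (SE), of opposite sign. Tcea1, the elongation factor that rescues stalled RNA polymerase II, fell by 0.49 at the brightest probe (limma, adjusted p = 0.0115) and differed by 0.015 at the other. Rtf1, a subunit of the PAF elongation complex, fell by 0.51 (adjusted p = 0.0462), and its 2 other probes differed by -0.11 and -0.051.

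Lower genes that bind or process RNA included Ddx6, Rbbp6, Zrsr2, Syncrip and Acin1. Ddx6, the helicase of cytoplasmic P-bodies, read -0.50, -0.47, -0.52, -0.60 and -1.33 in cafeteria refed rats, against 0.44, 0.69, 0.094, 0.28 and 0.30 in control refed rats. Here cafeteria refed rat 15 was far below the other 4, which lay between -0.60 and -0.47, and those 4 were still below all control refed rats. The difference was -1.05 ± 0.20 (SE) (limma, adjusted p = 0.0215), and -0.88 without that rat (adjusted p = 0.111). Its 2 other probes differed by -0.57 and -0.094. Rbbp6, a ubiquitin ligase that also takes part in messenger RNA 3' processing, differed by -0.84 ± 0.16 (SE) (adjusted p = 0.0193), and its other probe by -0.29. Zrsr2, which recognises the 3' splice site of minor introns, averaged -0.21 ± 0.26 in cafeteria refed rats and 0.52 ± 0.16 in control refed rats (SD, n = 5 arrays each, adjusted p = 0.0437 by limma), and its other probe differed by -0.20. Syncrip and Acin1, which bind messenger RNA or take part in splicing, differed by -0.51 and -0.55, and the other Syncrip probe by -0.27.

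The nucleolus was represented by 3 probes. Ubtf, which activates transcription of ribosomal RNA genes by RNA polymerase I, read -0.24, -0.035, -0.65, -0.23 and -0.77 in cafeteria refed rats, against 0.58, 0.36, 0.44, 0.41 and 0.083 in control refed rats. The groups did not overlap, and the difference was -0.76 ± 0.15 (SE) (limma, adjusted p = 0.0283), against -0.08 at its other probe. The first probe gave -0.66 without cafeteria refed rat 15 (adjusted p = 0.152). Pa2g4, a nucleolar growth regulator, differed by -0.78 ± 0.16 (SE) (adjusted p = 0.0351). A probe that the files describe by the nucleolin gene record M55017 (chromosome 9, 85118837 to 85118896, rn4) differed by -0.65 ± 0.12 (SE) (adjusted p = 0.0115). The probe that carries the nucleolin symbol Ncl, at 85113246 to 85113634 of chromosome 9, differed by -0.077 ± 0.11 (SE), so that the 2 records of nucleolin did not give the same size. Both nucleolin probes were looked up after the values were seen.

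**Figure D3:**
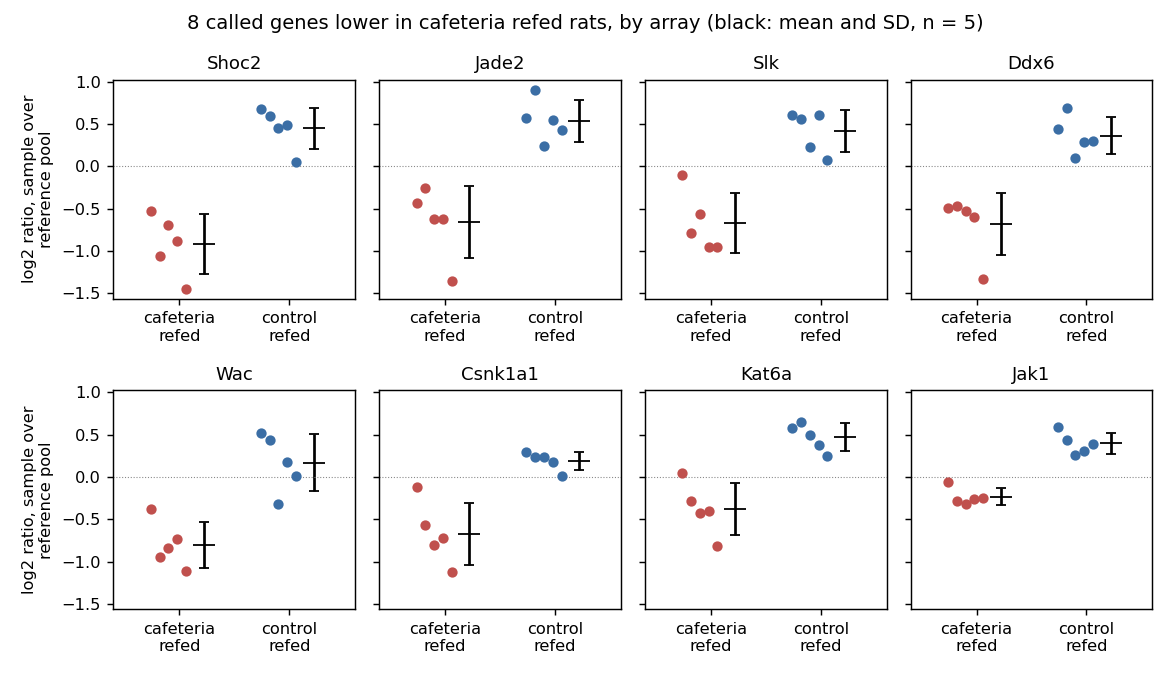
Dots are the log2 ratios of single rats for 8 called genes that were lower in cafeteria refed rats, drawn as in the plot of the higher genes. In all 8 panels every cafeteria refed value lies below every control refed value, and the lowest cafeteria refed rat for Shoc2, Jade2, Slk, Ddx6, Wac, Csnk1a1 and Kat6a is rat 15.

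Genes of lymphocytes and of the cytoskeleton were also among the lower ones. Ikzf3 (Aiolos), a zinc-finger factor of B cell development, fell by 0.56 (limma, adjusted p = 0.0215), and the interferon-induced GTPase Gbp5 fell by 0.42 (adjusted p = 0.0283). Wasf2, an activator of actin branching, and Slain2, a microtubule plus-end protein, fell by 0.50 and 0.35. Beside these, C12h12orf43 differed by -0.64, and Ttc14 and the pseudogene Rnps1-ps5 by -0.56 and -0.39. Of the named lower genes, Jak1, Taok3, Tcea1, Rtf1, Syncrip, Acin1, Ikzf3, Gbp5, Wasf2, Slain2, Ttc14 and Rnps1-ps5 fell outside the rule for named genes and were taken up, after their values were seen, from the other called lower genes that have a symbol.

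Another 19 lower calls had no symbol. The largest was CK470667 at -1.36 ± 0.30 (SE) (adjusted p = 0.0462), followed by BI395434 at -1.30 ± 0.23 (SE). BI395434 lies on chromosome 1 at 208428379 to 208428438 (rn4), close to another lower call, BC090353, at 208427470 to 208427529. BC090353 differed by -0.98 ± 0.16 (SE) there. Its other probe, of similar brightness, at 208426378 to 208426437, differed by -0.076 ± 0.12 (SE). Whether BI395434 and BC090353 measure the same gene was not tested. CF111195 read -0.15, -0.36, -0.98, -0.38 and -0.73 in cafeteria refed rats, against 0.81, 0.27, 0.30, 0.91 and 0.73 in control refed rats, with no overlap. Its difference was -1.13 ± 0.17 (SE) (limma, adjusted p = 0.00585), and all 4 of its probes were lower, by 1.13, 1.01, 0.59 and 0.50. Of these, 2 carry positions on the mitochondrial chromosome of rn4, at 1289 to 1348 and 1557 to 1613. It was -1.07 without cafeteria refed rat 15 (adjusted p = 0.0423). It passed the threshold in 20 of 22 alternative settings, more than any other of the 54.

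Probes of one gene did not always give the same picture. Among the 44 lower genes, 17 had 25 further probes, of which 22 had the same sign and 11 also an unadjusted p under 0.05 in that direction. The median difference of the further probes was -0.15, against -0.73 for the brightest probes of the same 17 genes. The higher genes had no further probe under their own names. AA874941 lies within the positions given for the ADRP probe, and both are counted among the higher genes. Whether they measure the same gene was not tested.

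The promoters of 2 higher and 2 lower genes are shown as examples of the sequences upstream of genes that moved in each direction. They are the 250 bases before the annotated start from RefSeq (GRCr8), which held 4 of the 7 higher and 17 of the 25 lower genes with a symbol. Capitals mark GGGCGG or its complement CCGCCC, the GC box.
Cpt1a (chr1:209995910-209996159, plus strand): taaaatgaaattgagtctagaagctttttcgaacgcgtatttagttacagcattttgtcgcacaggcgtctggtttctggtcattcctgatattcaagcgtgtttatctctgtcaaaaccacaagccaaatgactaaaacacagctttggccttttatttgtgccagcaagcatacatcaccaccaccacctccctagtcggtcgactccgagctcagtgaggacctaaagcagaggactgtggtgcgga
Pon3 (chr4:34350245-34350494, minus strand): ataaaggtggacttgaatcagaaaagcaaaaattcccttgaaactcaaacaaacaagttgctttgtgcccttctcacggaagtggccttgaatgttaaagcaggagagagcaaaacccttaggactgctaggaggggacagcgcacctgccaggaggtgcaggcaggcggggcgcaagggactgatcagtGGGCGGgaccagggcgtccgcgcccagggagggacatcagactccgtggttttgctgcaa
Shoc2 (chr1:263001055-263001304, plus strand): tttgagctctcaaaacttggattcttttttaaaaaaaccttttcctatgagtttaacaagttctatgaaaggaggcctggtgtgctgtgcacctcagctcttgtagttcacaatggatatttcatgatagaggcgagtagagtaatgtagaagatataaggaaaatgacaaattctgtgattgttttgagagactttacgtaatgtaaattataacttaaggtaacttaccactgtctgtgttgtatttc
Slk (chr1:256414763-256415012, plus strand): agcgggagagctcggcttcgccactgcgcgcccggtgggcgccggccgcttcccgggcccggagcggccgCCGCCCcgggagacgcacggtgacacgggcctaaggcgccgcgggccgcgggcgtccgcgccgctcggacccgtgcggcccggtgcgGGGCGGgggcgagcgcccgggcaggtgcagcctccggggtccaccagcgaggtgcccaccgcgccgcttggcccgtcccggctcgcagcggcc
These 4 stretches were 45.6, 54.8, 34.4 and 83.2% G or C. The GC box was present in 1 of the 4 higher and 11 of the 17 lower promoters, and in 30.5% of all 33469 promoters of the table. The comparison was with every promoter of the table, not only with those of genes measured in these cells. The called genes had passed a filter on signal, so the sets are unlike, for this and the following motifs. AGGTCA or its complement TGACCT, a hexamer bound by nuclear receptors such as the PPARs, was in 0 of the 4 higher and 2 of the 17 lower promoters, against 14.1% of all. TATAAA or its complement TTTATA was in 0 of the 4 and 0 of the 17, against 12.9% of all. CACGTG, the E-box, was in 0 of the 4 higher and 1 of the 17 lower promoters, against 5.59% of all. Each motif was searched on both strands, and none of them contains another. A match is a description of the letters in this window only.

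Further genes of fatty acid transport and synthesis did not pass the test. Slc27a2, a fatty acid transporter and acyl-CoA synthetase, read -4.85, -4.51, -0.20, -4.86 and -2.04 in cafeteria refed rats, against 0.93, 1.39, -0.53, -4.65 and -3.99 in control refed rats. In both groups single rats lay more than 4 log2 units apart, the groups overlapped, and the difference was -1.92 ± 1.33 (SE) (limma, adjusted p = 0.813). It was -2.23 without cafeteria refed rat 15 (adjusted p = 0.883), and the other probe of the gene differed by -1.80 over all 10 arrays. Fasn, the fatty acid synthase, averaged 0.012 ± 0.15 in cafeteria refed rats and 0.089 ± 0.13 in control refed rats (SD, n = 5 arrays each, adjusted p = 0.895 by limma). Srebf1, which activates it, averaged 0.26 ± 0.18 in cafeteria refed rats and 0.26 ± 0.11 in control refed rats (adjusted p = 0.998).

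Sterol synthesis and sterol efflux genes lay on opposite sides of 0, with no member called. Of 28 measured genes of sterol synthesis and uptake, 22 lay below 0 and 6 above, with a median of -0.099. Median centring of the arrays, which raised the median of all genes to 0.10, gave 0.07 for this list. Lss, which closes the lanosterol ring, averaged -0.28 ± 0.15 in cafeteria refed rats and 0.16 ± 0.085 in control refed rats (SD, n = 5 arrays each). Its groups did not overlap, and the adjusted p was 0.0586 (limma). Srebf2, the activator of sterol synthesis genes, averaged -0.21 ± 0.18 and 0.17 ± 0.17 in the same order, also without overlap (adjusted p = 0.137). A second Srebf2 probe of similar brightness differed by 0.20 ± 0.16 (SE), with the opposite sign. Of 12 measured genes of sterol efflux and its receptor LXR, 11 lay above 0, with a median of 0.11, or 0.35 with median centring and 0.065 without cafeteria refed rat 15. Abca1, which exports cholesterol to apolipoprotein A-I, averaged 0.28 ± 0.28 in cafeteria refed rats and -0.29 ± 0.26 in control refed rats, with overlapping groups (adjusted p = 0.12). Abcg2, a further exporter, differed by 0.39 ± 0.14 (SE) (adjusted p = 0.335).

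Markers of blood cell types lay on one side of 0 in several lists, without any gene passing the threshold. Over all 24269 genes, 53.0% lay above 0. At an unadjusted p under 0.05 (limma), 887 of all genes were higher and 1053 lower. Members of a list were measured on the same arrays, so the counts below are not independent findings. Of 14 measured erythroid genes, 13 lay above 0 and 10 had an unadjusted p under 0.05, with a median of 0.65, and of 0.48 to 0.80 on leaving out 1 refed array. The mean log2 ratio of the list ranged from -0.40 to 0.68 in cafeteria refed rats and from -1.002 to 0.18 in control refed rats. Ahsp, the chaperone of alpha haemoglobin, differed by 1.47 ± 0.42 (SE) (limma, adjusted p = 0.166). Natural killer and cytotoxic genes ran the other way, with 18 of 19 below 0, 9 of them with an unadjusted p under 0.05, and a median of -0.41. Their mean ranged from -1.07 to 0.035 in cafeteria refed rats and from -0.25 to 0.44 in control refed rats. Cafeteria refed rat 15 alone held the lowest value, and the median without it was -0.19, at one end of the -0.54 to -0.19 found on leaving out 1 array. Gzmm, a granule protease, differed by -0.66 ± 0.23 (SE) (adjusted p = 0.313) and the chemokine Ccl5 by -0.74 ± 0.29 (SE).

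All 15 B cell genes lay above 0, 2 of them with an unadjusted p under 0.05 (limma), and the median was 0.16. Without cafeteria refed rat 15, 12 lay above 0 and 3 below, with a median of 0.11. Cr2, the complement receptor, differed by 0.40 ± 0.17 (SE) (adjusted p = 0.501). Of 26 T cell genes 21 lay below 0, with a median of -0.084, which was 0.15 with median centring. Of 20 monocyte genes 15 lay above 0, with a median of 0.17, which was 0.071 without cafeteria refed rat 15 and 0.39 with median centring. Neutrophil genes had a median of 0.23, or 0.13 without that rat, with 14 of 16 above 0. Their mean ranged from -0.28 to 0.65 in cafeteria refed rats and from -0.55 to 0.043 in control refed rats. Platelet genes had 18 of 21 above 0, 1 of them with an unadjusted p under 0.05 (limma), and a median of 0.29. Without cafeteria refed rat 15, 13 lay above 0 and 8 below, with a median of 0.10. The platelet mean ranged from -1.48 to 0.34 in cafeteria refed rats and from -1.24 to -0.21 in control refed rats. With the platelet mean of each array as a covariate, 56 genes were called, 46 of them among the 54. The part of the erythroid, natural killer and neutrophil marker levels in the called genes was not tested.

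**Figure D4:**
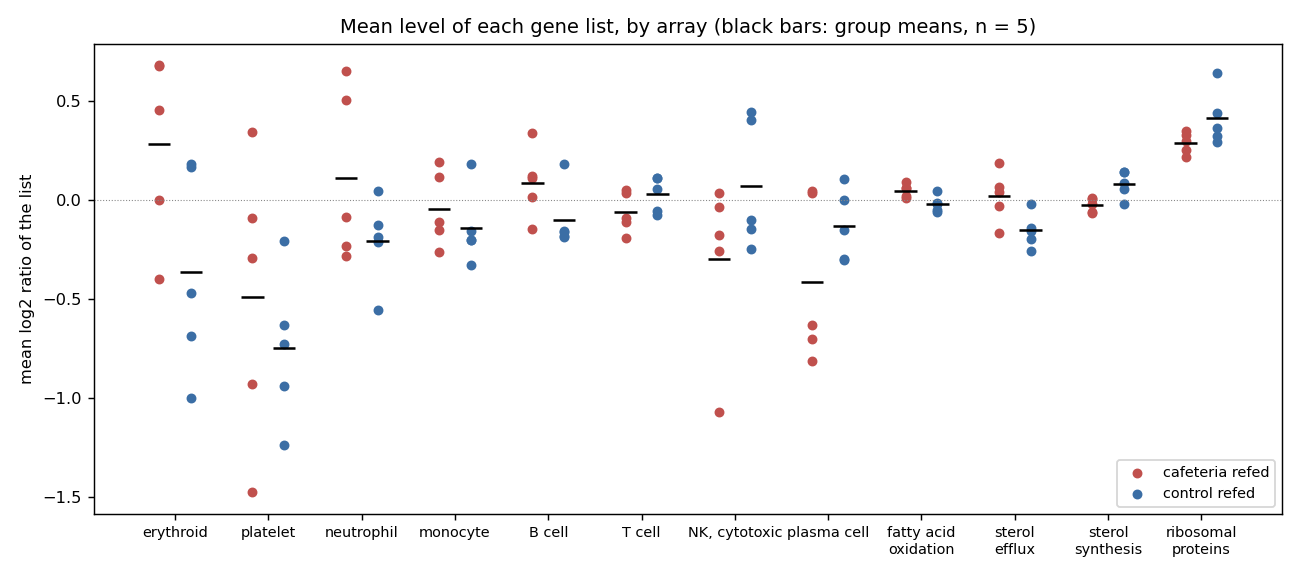
Each dot is the mean log2 ratio of a gene list on 1 array, with cafeteria refed rats in red, control refed rats in blue and black bars at the group means of 5 arrays. Erythroid means are higher and natural killer means lower in cafeteria refed rats, with overlap in both, and the single cafeteria refed value near -1.07 in the natural killer list is rat 15.

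Housekeeping lists lay near 0, on a side that depended on the scaling. Of 65 ribosomal protein genes 57 lay below 0, with a median of -0.11, which was 0.23 with median centring. None was called, and Rps13, a small-subunit protein, had the smallest p (adjusted p = 0.420). Of 44 oxidative phosphorylation genes 30 lay below 0, with a median of -0.043, which was 0.22 with median centring, and of 30 proteasome genes 22 lay below 0, with -0.036 and 0.25 in the same order.

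In rats that were freely fed or fasted, the diet comparison used other animals. There, 2 genes were called in fed rats (0.00824% of those tested), 1 higher and 1 lower (0.00412% each). In fasted rats 201 were called (0.828%), 25 higher (0.103%) and 176 lower (0.725%). The scanner images were read in 2 runs, described below. The first run held 4 control fasted and 1 cafeteria fasted arrays, and the second 1 and 4 in the same order. Diet and run were thus largely confounded in fasted rats, and the part of the run in the fasted calls was not tested. For fed rats the first run held 2 control and 4 cafeteria arrays, and the second 2 and 1. Of the 54 genes of refed rats, 52 had the same sign in fed rats and 53 in fasted rats, against 54.8% and 55.4% of all genes tested. The median of the 44 lower genes was -0.64 in refed, -0.43 in fed and -0.49 in fasted rats. That of the 10 higher genes was 0.73 in refed, 0.29 in fed and 0.26 in fasted rats. Of the 54, 18 were called in fasted rats as well, 17 lower and 1 higher, which is 33.3% of the refed calls and 8.96% of the fasted calls. Both genes called in fed rats, Cpt1a and CF111195, were among the 54.

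Cpt1a gives the clearest view of the 6 groups. It averaged 0.17 ± 0.14 in cafeteria refed and -0.47 ± 0.15 in control refed rats, 0.12 ± 0.12 in cafeteria fed and -0.41 ± 0.15 in control fed rats, and 0.17 ± 0.094 in cafeteria fasted and -0.08 ± 0.064 in control fasted rats (SD, n = 5 arrays, 4 in control fed). The diet difference was thus 0.65 in refed, 0.53 in fed and 0.25 in fasted rats. Its difference between refed and fasted rats had an unadjusted p of 0.0011 and an adjusted p of 0.587 (limma, interaction). Shoc2 differed between the diets by -1.37 in refed, -1.01 in fed and -1.24 in fasted rats. Tgm2 differed by 1.20, 0.93 and 0.45 in the same order of states.

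**Figure D5:**
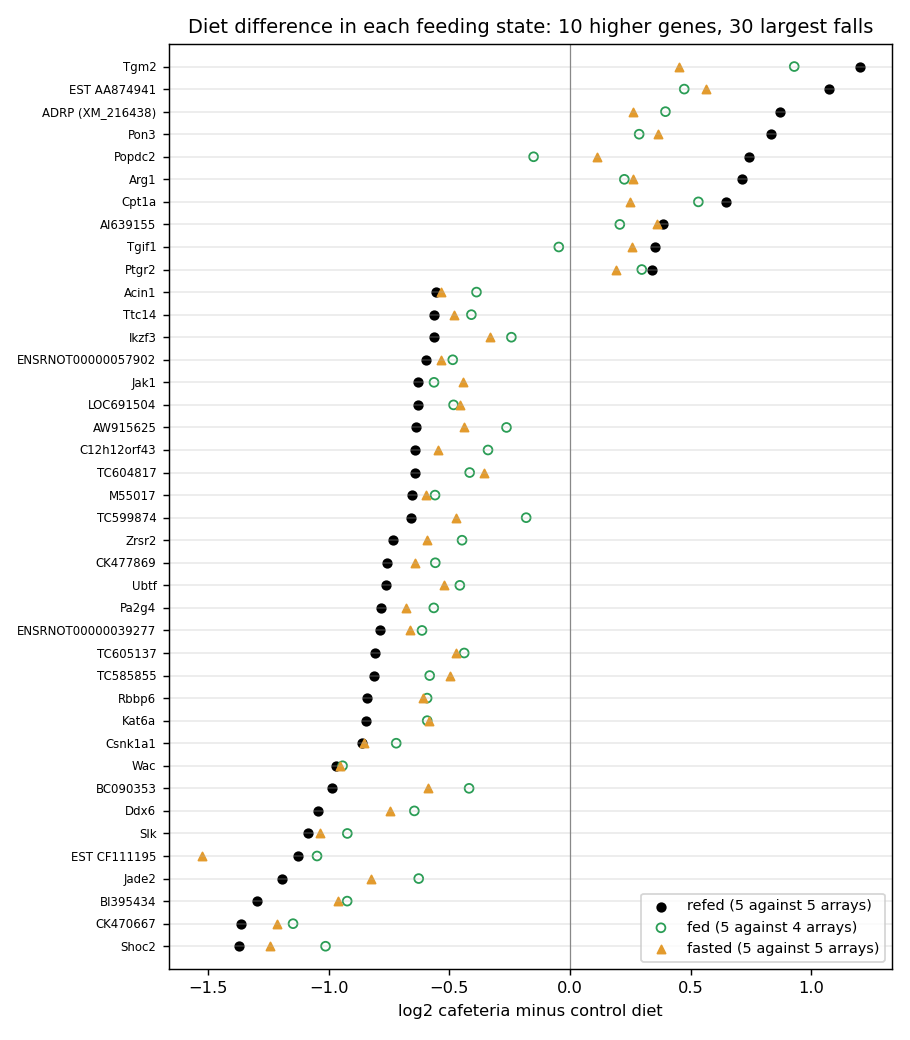
Each line is 1 gene called in refed rats, the 10 higher genes and the 30 lower genes with the largest falls, with the log2 difference between cafeteria and control diet on the horizontal axis in refed (black dots), fed (open circles) and fasted (triangles) rats. Apart from Popdc2 and Tgif1 in fed rats, all symbols of a gene lie on the same side of 0, and the black dots, on which the genes were chosen, are mostly the farthest from 0.

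Whether the diet difference in refed rats was another one than in fed or in fasted rats was tested gene by gene. The test of that difference called 0 of 24269 genes (0%) for refed against fed rats and 0 (0%) for refed against fasted rats (limma interaction), while 764 and 1813 genes had an unadjusted p under 0.05. The smallest p for refed against fed rats among genes with a symbol was that of Popdc2, with diet differences of 0.74 in refed, -0.15 in fed and 0.11 in fasted rats (unadjusted p = 0.000204, adjusted p = 1.00). Tk2, the mitochondrial thymidine kinase, was in the leading 5 of both tests, with -0.43 in refed, 0.29 in fed and 0.27 in fasted rats.

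Slides and the 2 runs of image extraction, in which the scanner software read the images, were shared unevenly by the groups. Of the 10 arrays, 1 cafeteria refed and 2 control refed arrays were read in the first run and 4 cafeteria refed and 3 control refed arrays in the second. The 54 genes were chosen on these arrays and 50 of them do not overlap between the groups, so their sign within a run or slide was fixed by that choice and is no check. As a description, the median size of their differences was 0.59 in the first run and 0.69 in the second, against 0.65 over all 10 arrays. Only slides 3 and 8 held an array of both groups, 1 of each, with median sizes of 0.96 and 0.48. The difference of Cpt1a was 0.45 in the first run, 0.73 in the second, 0.90 on slide 3 and 0.34 on slide 8. With the slide as a block 1 gene (CF111195) passed the threshold, and with the run as a block 37 did.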

How the data were processed

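Agilent 2-colour rat arrays were measured for 29 rats. The authors deposited scanner output of Feature Extraction 9.5.1.1, with probe positions in rn4 (per the file headers). It gives each spot's mean and background intensity, processed signals and flags. Per the labels, the rat's own RNA was in Cy5 and the pool in Cy3 on every array, after linear amplification and with no dye swap. The authors' deposited value table holds normalized Cy5 signals, which a slope of 0.985 to 1.02 against the scanner's intensities showed to be on a log2 scale. How its arrays were normalized is not given in the sources used here. Its column medians were 9.46, 9.64, 9.48, 9.56 and 9.59 for cafeteria refed rats and 9.47, 9.51, 9.76, 9.68 and 9.57 for control refed rats. It served as an alternative only.

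From the scanner intensities, backgrounds were corrected with normexp (offset 50) and ratios normalized by loess within arrays, in limma 3.58.1 under R 4.3.3. Control spots had weight 0, and 526 outlier values were left out. Probes entered if 4 or more of the 29 arrays had their Cy5 well above background. The brightest probe stood for each of 24269 genes. Names came from the files, updated through RefSeq (GRCr8) for 19548 of 41012 probes. Another 148 were set aside because the 2 sources gave different chromosomes, and the rest keep the name in the files.

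All 6 groups entered 1 linear model, with p-values adjusted by Benjamini-Hochberg over all genes and a threshold of 0.05. The control fed group held 4 rats and each other group 5, and this number limits the precision. The model was tested on simulated data with known changes. Alternatives were processed signals, median centring, Cy5 alone, the authors' table, other filters on dim probes, every probe tested, the 10 refed arrays alone, blocks for slide, image extraction run and rat number, a platelet covariate and leaving out each refed array.

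Named genes were the 12 largest rises and falls among called genes with a symbol, filled by the smallest p where fewer were called. To these came up to 4 called or else the 2 leading members of each list, the genes Slc27a2, Cpt1a, Fasn and Srebf1, and the 5 leading genes of each test between feeding states. Exceptions are named where they occur, and 1 called gene is not reported here. Members and gene lists were chosen with earlier results of these data known.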

Additional observations from a re-analysis of the deposited data

Results flagged for a closer look

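Single arrays lay far from the other 4 of their group in 11 of 212 groups of 5 values checked (5.19%), by Dixon's gap test with a critical ratio of 0.71. Chance alone sets about 1 in 20 groups apart in this test.

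In cafeteria refed rats, Ddx6 on the array of rat 15 was at -1.33, with the nearest other value at -0.60. Prdm1, a factor of plasma cell development, was also at -1.33 on that array, with the nearest value at -0.34. The mean of the natural killer and cytotoxic genes was -1.07 on the same array, with the nearest at -0.26. Jak1 on the array of cafeteria refed rat 3 was at -0.056, against a nearest value of -0.25, and Syncrip on that array was at -0.087, against -0.33.

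Cd36 on the array of cafeteria refed rat 12 was at -0.39, with the nearest other value at 0.64, and on the array of control refed rat 12 at 0.53, with the nearest at -0.20. Fabp4, a fatty acid-binding protein, was at 0.26 on the array of control refed rat 12, against a nearest value of 0.0043. In control refed rats, AI639155 was at -0.13 on the array of rat 3, against -0.0025. Cd2, a T cell adhesion molecule, was at 0.021 on the array of rat 6, against -0.19. The B cell mean was 0.18 on the array of rat 9, against -0.16.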

How the results depend on the processing

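Among 22 alternatives, the count of 54 genes stayed within 1.5 times of itself in 8 and moved further in 14. It was 118 with processed signals, 114 with Cy5 alone, 293 with the authors' table (5.80% of them higher in cafeteria refed rats, against 18.5%), 104 with every probe tested, 1 with the slide as a block, and 0 both with median centring and with the 10 refed arrays alone. Median centring moved the median of all genes to 0.10. Leaving out 1 refed array gave 4 to 142 calls. The labels do not say whether the numbers shared by the diets pair the rats. Deviations of same-numbered rats correlated between -0.083 and 0.21, over 0.1 in 1 of 5 pairs, and 0 of 5 rats correlated best with its own number. These values show no clear pairing, but so few pairs cannot exclude one. With the rat number as a replicate block, 142 genes were called, 48 of them among the 54. Of the 54, none had another sign in any alternative, which the choice of genes on the same arrays largely fixes, and 20 passed the threshold in at least 16 of the 22. The tests between feeding states called 0 genes in all alternatives, except 1 for refed against fed rats without cafeteria refed rat 12, so 0 to 1 on leaving out 1 array. Fasn turned to 0.17 with median centring. Srebf1 turned to 0.25 with median centring, 0.065 with the slide as a block, 0.025 with the platelet covariate and -0.053 to 0.052 on leaving out 1 array, above 0 in 5 of those 10 fits. The cause of these shifts was not tested.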

Other observations

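Several further gene lists held no called gene. Of their members described here and in the next paragraph, Atf6 came closest to the threshold, and none passed it. Of 23 measured endoplasmic reticulum chaperone and unfolded-protein genes, 17 lay below 0, with a median of -0.085, or 0.13 with median centring. Atf6, the membrane-bound sensor of unfolded protein, averaged -0.24 ± 0.15 in cafeteria refed rats and 0.35 ± 0.30 in control refed rats (SD, n = 5 arrays each), with no overlap (limma, adjusted p = 0.0735). Calr, the calcium-binding chaperone calreticulin, averaged -0.69 ± 0.32 in cafeteria refed rats and 0.027 ± 0.33 in control refed rats (limma, adjusted p = 0.125). Tlr3, the receptor of double-stranded RNA, averaged -0.33 ± 0.19 in cafeteria refed rats and 0.31 ± 0.25 in control refed rats, with no overlap (adjusted p = 0.181). The other 11 measured Toll-like receptor genes had larger p-values, and the median of the list was 0.0039.

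Of 21 measured glucocorticoid response genes, 15 lay above 0, with a median of 0.16, or 0.097 without cafeteria refed rat 15. Gadd45a, a growth arrest gene, averaged 0.14 ± 0.23 in cafeteria refed rats and -0.28 ± 0.10 in control refed rats, with no overlap (limma, adjusted p = 0.135). Gadd45b, its relative, differed by -0.31 ± 0.12 (SE), in the other direction (adjusted p = 0.431). Of 32 measured interferon response genes, 23 lay below 0, with a median of -0.12, or 0.086 with median centring. The 2 members with the smallest p were above 0. Ifitm1 differed by 0.46 ± 0.16 (SE) (limma, adjusted p = 0.326). Rsad2 differed by 1.102 ± 0.47 (SE) (limma, adjusted p = 0.518), with 0.42 at a second, dimmer Rsad2 probe. All 7 measured plasma cell genes lay below 0, with a median of -0.30. None of them, and none of 26 immediate early genes, had an unadjusted p under 0.05 (limma). In the synthesis of fatty acids and triglycerides, Acsl1, which activates long-chain fatty acids, averaged 0.27 ± 0.21 in cafeteria refed rats and -0.31 ± 0.34 in control refed rats (SD, n = 5 arrays each, adjusted p = 0.258 by limma). The 3 dimmer Acsl1 probes differed by 0.16, 0.13 and 0.04.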
